A study of Mus musculus with 4 samples.

Results

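Collagen and laminin genes were followed in RNA from cells isolated as astrocytes from the mouse cerebral cortex, with and without a conditional knockout of Ezh2. The members are the protein-coding genes of the count table whose symbol reads Col, a number, a and a number, or Lam, a letter from a to c and a number from 1 to 5. There were 55 of them among 29224 genes in all, of which 17887 were protein-coding. They comprised 44 collagen genes and 11 laminin genes. Fibrillar collagens contributed 11 genes, the chains of basement membranes 17 (6 of collagen IV and 11 of laminins), and the remaining collagens 27.

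Ezh2 encodes the histone methyltransferase that places the repressive H3K27me3 mark. The study compared 2 libraries from Ezh2 f/f mice, which carry floxed Ezh2 alleles, with 2 libraries from Ezh2 cKO mice, in which the same floxed alleles were combined with Aldh1l1-icre. Cells were taken from the cortex at postnatal day 5 with magnetic beads against GLAST, a glutamate transporter of astrocytes, and sequenced on an Illumina platform. Since the Cre recombinase is driven by the astrocyte gene Aldh1l1, cells that came along with the beads and in which Cre was never active would keep Ezh2. Which cells these were was not tested. The sources used here do not say whether a library came from 1 animal or a pool, so that p-values measure the spread between these libraries only.

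Collagens are secreted proteins whose chains wind around each other into a rod. Fibrillar collagens assemble into the fibres of connective tissue, such as the meninges and the walls of larger vessels, whereas collagen IV forms the network of basement membranes. FACIT collagens sit on the surface of fibrils, and collagen VI builds beaded filaments beside the basement membrane. Laminins are made of an alpha, a beta and a gamma chain and polymerise on the cell surface through their receptors, integrins and dystroglycan. In the brain, the endfeet of astrocytes rest on the basement membrane of vessels and of the pial surface, to which astrocytes, endothelial cells, pericytes and fibroblasts each contribute chains.

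Total counts ranged from 16273308 to 17522152 per library. The counts of Ezh2 itself were 434 and 327 in Ezh2 f/f against 211 and 164 in Ezh2 cKO, a 2.16-fold lower level (adjusted p = 3.26e-05, edgeR quasi-likelihood test). Of the 16793 genes tested, 34.7% were higher and 33.6% were lower in Ezh2 cKO, each with an adjusted p under 0.05, so that a call by itself was common. Markers of other cells were present and moved between the groups. In CPM, the counts scaled to library size, 10 astrocyte markers summed to 477.9 to 490.2 in Ezh2 f/f against 2563 to 2812 in Ezh2 cKO, with 9 higher and 0 lower. The 10 neuron markers summed to 6191 to 6404 and 7739 to 7814, with 6 higher and 2 lower. Tubb3, 1 of the 2 lower, held a large part of the neuron sums, with 3563 and 3671 CPM in Ezh2 f/f against 2245 and 2171 in Ezh2 cKO. The 12 endothelial markers summed to 337.2 to 349.9 in Ezh2 f/f against 313.9 to 367.6 in Ezh2 cKO, with 2 higher and 2 lower. The 12 mural cell markers summed to 275.0 to 291.2 and 400.8 to 458.3, with 5 of the 11 tested higher and 1 lower; Tagln, at 2 to 3 counts, was not tested. The 12 markers of meningeal and perivascular fibroblasts summed to 220.1 to 280.8 and 208.4 to 219.0, with 3 higher and 6 lower. The order of these sums rests on Zic1, without which the other 11 summed to 182.2 to 185.5 in Ezh2 f/f against 197.2 to 207.1 in Ezh2 cKO. These 11 include Pdgfra, also a marker of oligodendrocyte precursors, with 40.05 and 39.71 CPM in Ezh2 f/f against 72.94 and 75.49 in Ezh2 cKO. The direction of either sum thus depends on single genes (both were singled out after their values were seen). The 8 microglia markers summed to 62.9 to 68.0 and 210.3 to 243.0, all higher, and the 8 markers of oligodendrocyte precursors to 563.8 to 609.9 and 1202 to 1320, all higher. Of 9 progenitor markers 2 were higher and 7 lower, with sums of 614.0 to 664.5 and 610.6 to 691.6. A large part of these sums was Fabp7, 1 of the 2 higher markers (singled out after its values were seen). It had 224.1 and 261.4 CPM in Ezh2 f/f against 493.1 and 420.1 in Ezh2 cKO. No marker was at 0 in all libraries. In such bulk samples fewer cells of a type and less RNA per cell cannot be told apart, and the part of these cells in the results that follow was not tested.

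Members took 0.141% and 0.139% of the counts in the Ezh2 f/f libraries against 0.138% and 0.134% in the Ezh2 cKO libraries. Within this total the single chains moved in both directions. Of the 55 genes, 53 passed the filter on low counts. Among these 53, 19 were higher in Ezh2 cKO (35.8%, against 34.7% of all genes tested), 11 were lower (20.8%, against 33.6%) and 23 were not called. With the further demand of a 2-fold change, 11 were higher and 2 lower, against 19.0% and 14.0% of all genes tested. The median log2 fold change of the 53 genes was 0.30, whereas that of all genes tested was 0.02. A group of 6 genes, namely Col17a1, Col19a1, Col24a1, Col6a6, Col8a1 and Col28a1, reached the filter only through the Ezh2 cKO libraries, so that a lower level in Ezh2 cKO could not have been found for them, and 4 of them were called higher. None reached it only through Ezh2 f/f. Among all genes tested, 7.43% reached the filter through Ezh2 cKO only and 4.55% through Ezh2 f/f only. The untested genes were Col4a3, a chain of the kidney and lung type of collagen IV, with 0 to 10 counts, and Col10a1, the collagen of hypertrophic cartilage, with 0 to 3 counts.

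**Figure D1:**
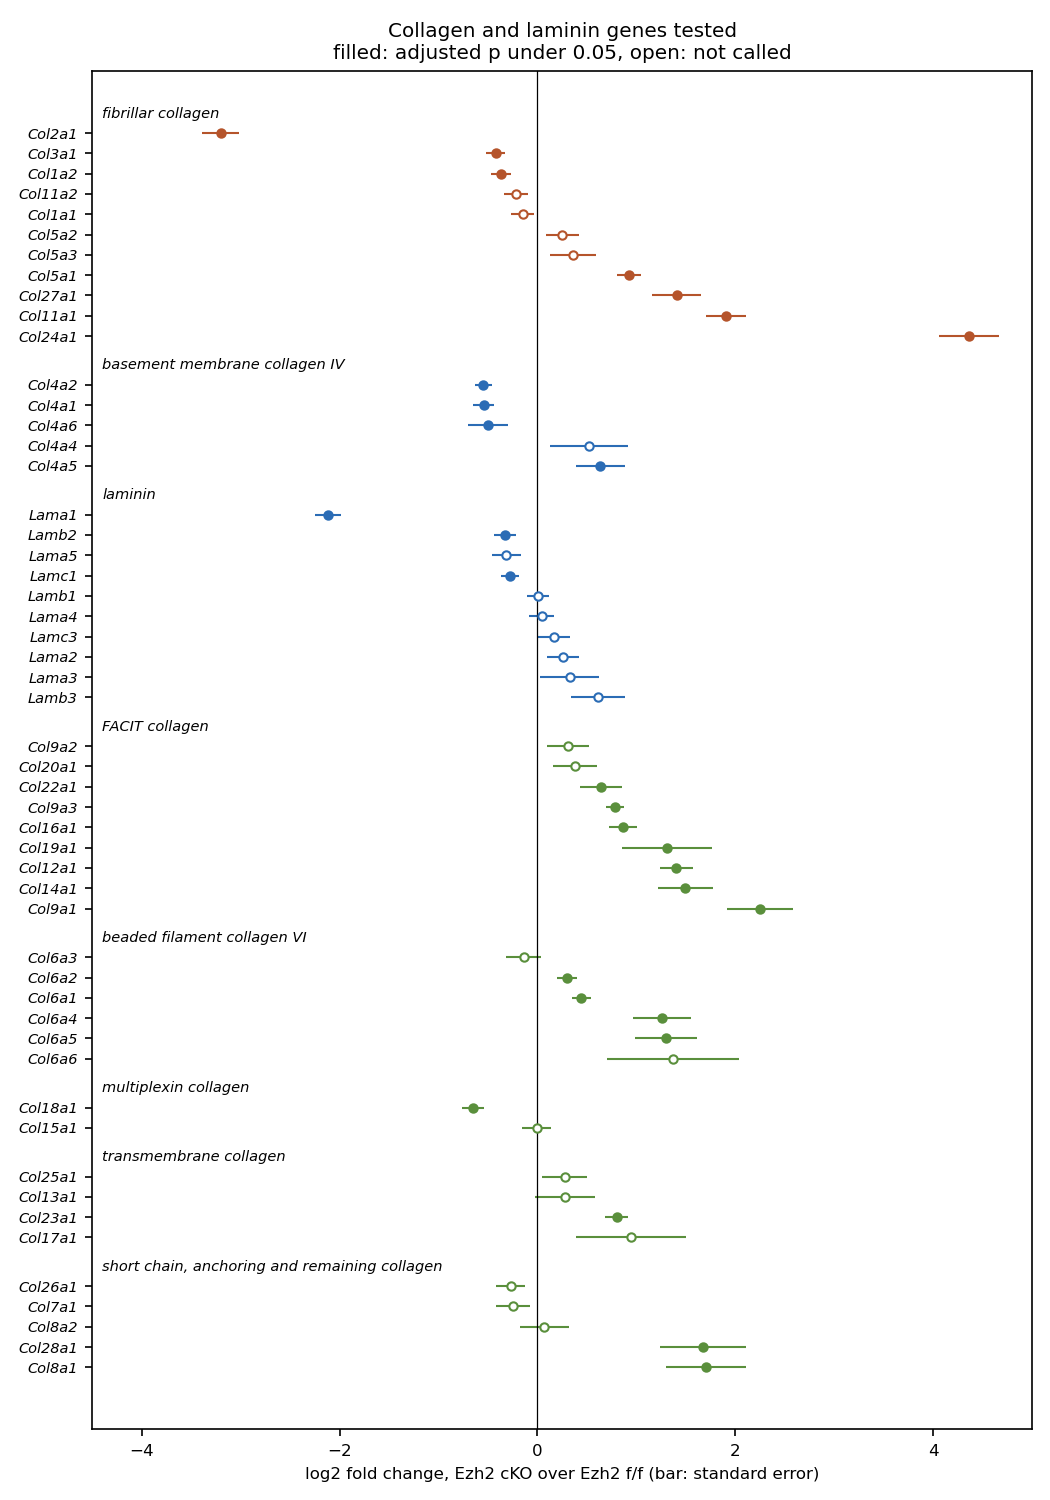
Log2 fold change (Ezh2 cKO over Ezh2 f/f, x axis) of the tested collagen and laminin genes named in the text, grouped by class, with the standard error of the edgeR fit as a bar. Filled points were called at an adjusted p under 0.05. Col24a1 lies farthest to the right at 4.36 and Col2a1 farthest to the left at -3.20, and no tested FACIT collagen lies below 0.

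Among all genes tested, 34.7% were higher and 33.6% lower. Of 16 tested basement membrane chains, 1 was higher (6.25%) and 7 were lower (43.8%), with a median log2 fold change of -0.14. Of 11 fibrillar chains, 4 were higher (36.4%) and 3 were lower (27.3%), shares near those of all genes, with a median of 0.25. Of 26 other chains, 14 were higher (53.8%) and 1 was lower (3.85%), with a median of 0.71. Col24a1 of the fibrillar chains and Col17a1, Col19a1, Col6a6, Col8a1 and Col28a1 of the other chains could not have been called lower. They reached the filter only through the Ezh2 cKO libraries. The difference between classes itself was not tested. In summed CPM, basement membrane chains fell from 725.1 and 681.0 in Ezh2 f/f to 527.7 and 513.4 in Ezh2 cKO, while other chains went from 351.4 and 413.3 to 485.3 and 466.1. The fibrillar sums overlapped between the groups, at 367.3 and 339.8 in Ezh2 f/f against 343.3 and 310.3 in Ezh2 cKO.

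**Figure D2:**
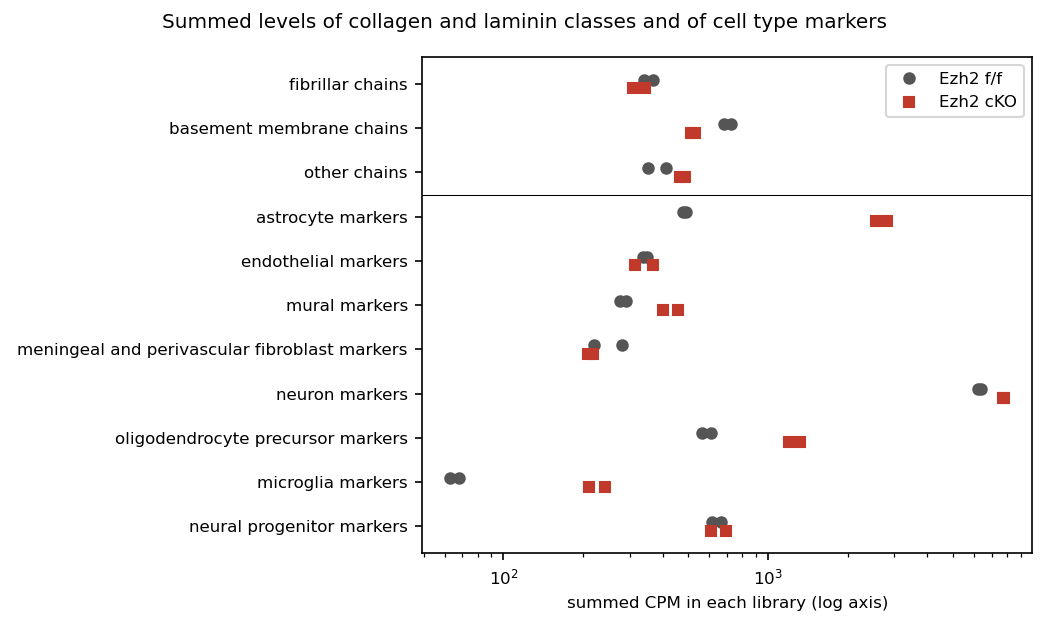
Summed CPM in each library (log x axis) of the fibrillar, basement membrane and other chains (above the line) and of the cell type marker lists (below it). Circles are Ezh2 f/f and squares Ezh2 cKO libraries. The sums of the basement membrane chains were lower in both Ezh2 cKO libraries, and those of the endothelial markers overlapped.

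A few promoters of fibrillar chains are shown, so that chains called higher stand beside chains called lower. They are the RefSeq windows of GRCm38.p6, read 5′ to 3′ on the strand of the gene. Windows were at hand for 40 of the 55 genes (44 windows), not for Col2a1, and each runs from 250 bases before the start to 50 after it. The first 250 bases are printed, with motifs found on either strand in capitals. The cAMP response element was searched as TGACGTCA. The GC box, to which factors of the Sp family bind, was searched as GGGCGG. The letters CCAAT were taken for the box of that name, and those of a TATA box were TATAAA. Col24a1 and Col11a1 rose, and Col1a2 and Col3a1 fell. The Col24a1 window is carried on to base 251, because its cAMP response element ends on the first base of the transcript.
Col24a1 (chr3:145292222-145292472, + strand): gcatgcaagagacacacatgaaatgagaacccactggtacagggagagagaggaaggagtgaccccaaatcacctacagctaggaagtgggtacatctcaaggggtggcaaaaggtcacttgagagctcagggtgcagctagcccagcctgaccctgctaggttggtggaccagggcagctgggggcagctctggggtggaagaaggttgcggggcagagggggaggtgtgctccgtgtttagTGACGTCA
Col11a1 (chr3:114030290-114030539, + strand): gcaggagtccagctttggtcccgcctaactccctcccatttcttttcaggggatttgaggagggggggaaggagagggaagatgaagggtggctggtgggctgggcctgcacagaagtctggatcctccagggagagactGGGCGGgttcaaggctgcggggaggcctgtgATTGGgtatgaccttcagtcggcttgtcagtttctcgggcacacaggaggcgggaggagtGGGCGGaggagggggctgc
Col1a2 (chr6:4505368-4505617, + strand): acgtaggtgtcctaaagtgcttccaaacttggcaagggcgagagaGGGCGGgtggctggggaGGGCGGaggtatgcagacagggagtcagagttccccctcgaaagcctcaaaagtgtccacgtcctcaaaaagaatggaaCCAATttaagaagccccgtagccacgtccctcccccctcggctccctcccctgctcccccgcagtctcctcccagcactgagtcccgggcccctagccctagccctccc
Col3a1 (chr1:45311288-45311537, + strand): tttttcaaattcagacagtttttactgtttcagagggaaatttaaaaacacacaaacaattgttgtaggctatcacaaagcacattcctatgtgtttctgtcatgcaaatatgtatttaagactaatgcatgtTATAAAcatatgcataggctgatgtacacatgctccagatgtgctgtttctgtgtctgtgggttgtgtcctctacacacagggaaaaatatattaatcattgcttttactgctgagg

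The cAMP response element was found in 1 of the 44 member windows, that of Col24a1, and in 1.79% of all 32851 windows. The GC box was found in 26 of the 44 member windows and in 35.7% of all windows, the CCAAT box in 14 and in 37.4%, and the TATA box in 5 and in 13.6%. The 17 windows of genes that rose held a median of 8 CpG dinucleotides in the 250 bases before the start, and the 8 windows of genes that fell a median of 7, against 6 over all windows. Within both directions the numbers differed widely, from 0 in Col9a1 and Col28a1 to 28 in Col5a1 among those that rose, and from 0 in Col3a1 to 31 in Col4a1 among those that fell. Hence the CpG content of the window did not separate the genes by direction. These matches describe the letters only.

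Among the fibrillar chains the responses were the most spread. Col24a1, which encodes a minor fibrillar collagen of developing bone, was counted 8 and 6 times in Ezh2 f/f against 151 and 160 times in Ezh2 cKO (deposited position chromosome 3, 144998233 to 145257766). The gene was thus near the 3 counts used as the limit of detection in both Ezh2 f/f libraries and well above it in both Ezh2 cKO libraries. Its CPM went from 0.425 ± 0.0612 (SD, n = 2) to 8.90 ± 0.474 (SD, n = 2). The log2 fold change was 4.36 ± 0.30 (SE), or 20.5-fold (adjusted p = 2.27e-08). It passed the filter through the Ezh2 cKO libraries only.

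Col2a1, the main fibril chain of cartilage, which neural progenitors also transcribe in the embryo, showed the opposite pattern (chromosome 15, 97873483 to 97902576). Its CPM was 22.1 and 28.1 in Ezh2 f/f against 2.84 and 2.60 in Ezh2 cKO. The level was 9.21-fold lower in Ezh2 cKO (log2 fold change -3.20 ± 0.19, adjusted p = 4.95e-09). Of the 9 progenitor markers 7 were lower and 2 higher. Their sums overlapped between the groups, but a large part of them was Fabp7, 1 of the 2 higher markers. The part of the progenitor markers in the difference of Col2a1 was not tested.

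Further fibrillar chains called higher were Col11a1, Col27a1 and Col5a1. Col11a1, which nucleates thin fibrils, had a CPM of 4.16 and 3.06 in Ezh2 f/f against 13.0 and 14.2 in Ezh2 cKO, a 3.75-fold higher level (adjusted p = 1.24e-06). Col27a1, a collagen of thin fibrils in cartilage, went from 1.93 and 2.61 CPM to 5.79 and 6.23, a 2.65-fold rise (adjusted p = 0.000191). Col5a1, the regulator of fibril diameter, went from 24.7 and 26.4 CPM to 53.2 and 43.7, a 1.90-fold rise (adjusted p = 9.06e-06). In these 3 genes the groups did not overlap, a trait not counted over all genes. Other chains of collagens V and XI did not pass the test. The log2 fold change was 0.25 ± 0.17 for Col5a2, 0.36 ± 0.24 for Col5a3 and -0.22 ± 0.12 for Col11a2.

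The chains of the major fibrils of collagen I and collagen III were lower or not called. Col3a1 had 72.4 and 65.0 CPM in Ezh2 f/f against 53.5 and 48.9 in Ezh2 cKO (1.34-fold lower, adjusted p = 0.00148). Col1a2 had 109.0 and 98.3 CPM in Ezh2 f/f against 85.7 and 75.0 in Ezh2 cKO (1.29-fold lower, adjusted p = 0.00555). Without Ezh2 cKO replicate 2 the call of Col1a2 was lost (adjusted p = 0.0944). Col1a1, whose chain shares the collagen I molecule with that of Col1a2, had 84.0 and 65.5 CPM in Ezh2 f/f against 69.0 and 65.6 in Ezh2 cKO. Its libraries overlapped, with a log2 fold change of -0.15 ± 0.12 (adjusted p = 0.257). Leaving out Ezh2 f/f replicate 2 gave a call (-0.33, adjusted p = 0.0125), and leaving out Ezh2 f/f replicate 1 turned the direction (0.04).

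Per gene length (FPKM), the fibrillar sum was 40.2 and 36.7 in Ezh2 f/f against 39.5 and 36.6 in Ezh2 cKO. Within it, Col5a1 went from 7.55% ± 0.81 to 15.3% ± 1.05 (SD, n = 2), Col24a1 from 0.140% ± 0.0120 to 3.17% ± 0.388 and Col11a1 from 0.711% ± 0.113 to 2.90% ± 0.382. Col2a1 went from 6.90% ± 1.55 to 0.794% ± 0.00569. Col1a1 held the largest share in both groups, with 28.6% ± 3.34 and 27.8% ± 0.932. Shares carry no test, since 2 libraries against 2 cannot reach an exact two-sided permutation p below 0.333.

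**Figure D3:**
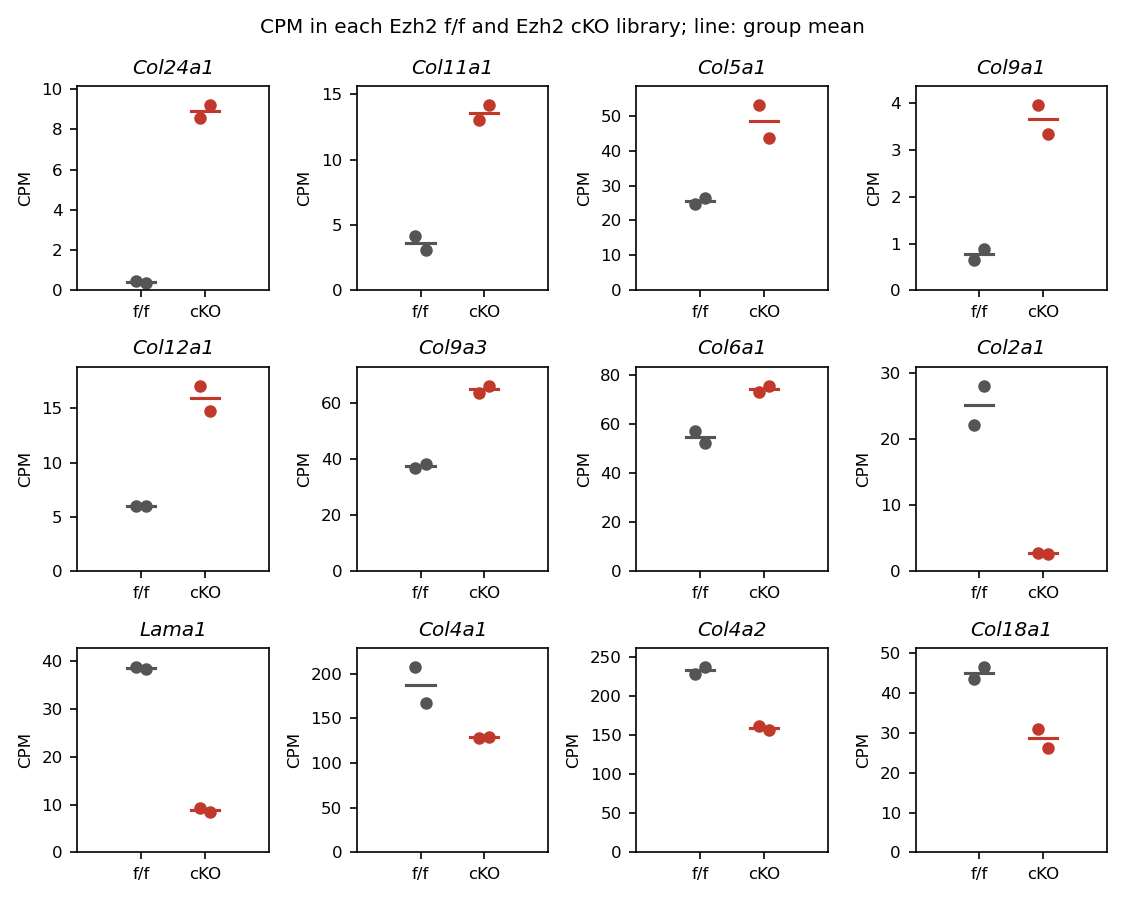
CPM (y axis, from 0) of 12 collagen and laminin genes in each of the 4 libraries. Points are libraries and lines the group means. The 12 genes are a selection, and in each the Ezh2 f/f and Ezh2 cKO libraries were apart. How often this held over all genes was not counted. For Col24a1 both Ezh2 f/f libraries lay below 0.5 CPM.

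The abundant basement membrane collagens fell together. Col4a1 and Col4a2, which form the collagen IV molecule of nearly all basement membranes, were the most highly expressed members per length, with a mean of 24.4 and 34.2 FPKM in Ezh2 f/f. Col4a2 had 228.1 and 237.9 CPM in Ezh2 f/f against 161.9 and 156.5 in Ezh2 cKO. Col4a1 had 207.9 and 167.0 CPM in Ezh2 f/f against 127.9 and 129.6 in Ezh2 cKO. In both genes the Ezh2 cKO libraries lay below the Ezh2 f/f libraries. The log2 fold change was -0.55 ± 0.09 for Col4a2 (adjusted p = 6.17e-05) and -0.54 ± 0.11 for Col4a1 (adjusted p = 0.000411), that is 1.46-fold lower in each. The call of Col4a1 was lost with limma on log2(FPKM + 1) without a filter (adjusted p = 0.0659).

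The genes lie head to head on chromosome 8, at 11248423 to 11362826 and 11362805 to 11499287 as deposited, so that their first 22 bases overlap on opposite strands. The same overlap in the RefSeq windows is shown because both starts lie within it (CpG in capitals, + strand).
Col4a1 and Col4a2 (chr8:11312805-11312826): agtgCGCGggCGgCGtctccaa
It holds 4 CpG dinucleotides, and the 250 bases before the starts hold 31 for Col4a1 and 26 for Col4a2. Reads that end in these bases cannot be told apart if the counting did not use strand, which the sources used here do not state.

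The other chains of collagen IV were low and did not move as one. Col4a6, which pairs with the Col4a5 chain in smooth muscle basement membranes, had 6.85 and 6.75 CPM in Ezh2 f/f against 4.71 and 4.91 in Ezh2 cKO (log2 fold change -0.50 ± 0.20, adjusted p = 0.0398). Col4a5 had 3.22 and 3.69 CPM in Ezh2 f/f against 4.48 and 6.23 in Ezh2 cKO (log2 fold change 0.63 ± 0.25, adjusted p = 0.0351). The 2 genes are neighbours on the X chromosome, 1308 bases apart and pointing away from each other, and were called in opposite directions. Neither call is firm. That of Col4a6 was lost on leaving out any 1 library (adjusted p from 0.052 to 0.137), and that of Col4a5 without Ezh2 f/f replicate 1 (adjusted p = 0.0902) or Ezh2 cKO replicate 2 (adjusted p = 0.305). Col4a4, with 12 to 32 counts, had a log2 fold change of 0.52 ± 0.39 and was not called, except without Ezh2 f/f replicate 1 (1.18, adjusted p = 0.0449). Summed over its chains, collagen IV had 62.2 and 57.8 FPKM in Ezh2 f/f against 43.8 and 44.4 in Ezh2 cKO. The Col4a1 share was 40.5% ± 4.42 and 40.2% ± 0.594 (SD, n = 2) and that of Col4a2 57.1% ± 4.29 and 56.1% ± 1.02, a difference within the spread between libraries.

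Among the laminins the alpha chain of early basement membranes changed by far the most. Lama1, the alpha chain of laminin-111, which is known in the brain mainly from the pial basement membrane, had 38.9 and 38.4 CPM in Ezh2 f/f against 9.30 and 8.43 in Ezh2 cKO (chromosome 17, 68004254 to 68129642). The libraries of each group were close to each other and far from those of the other group. The level was 4.35-fold lower in Ezh2 cKO (log2 fold change -2.12 ± 0.13, adjusted p = 7.71e-09). Without any 1 library the log2 fold change ranged from -2.19 to -2.05. The 12 fibroblast markers, which include meningeal cells, had 6 lower and 3 higher members. The direction of their sum depends on single genes. Without Zic1 the other 11 summed higher in both Ezh2 cKO libraries, but these include Pdgfra, also a marker of oligodendrocyte precursors. It had 40.05 and 39.71 CPM in Ezh2 f/f against 72.94 and 75.49 in Ezh2 cKO. The part of the fibroblast markers in the fall of Lama1 was not tested.

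The other alpha chains did not pass the test. Lama2, the alpha chain of muscle and of the glial side of vessels, had 9.95 and 9.23 CPM in Ezh2 f/f against 10.9 and 12.1 in Ezh2 cKO (log2 fold change 0.26 ± 0.16, adjusted p = 0.176). The log2 fold change was 0.04 ± 0.13 for Lama4, an endothelial chain, and -0.32 ± 0.15 for Lama5, the other endothelial chain (adjusted p = 0.788 and 0.0705). Lama3, the alpha chain of epithelia, had 35 to 66 counts and a log2 fold change of 0.33 ± 0.30. Leaving out Ezh2 f/f replicate 2 raised it to a call (0.82, adjusted p = 0.0264), and leaving out Ezh2 f/f replicate 1 turned its direction (-0.06).

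The makeup of the alpha chains differed between the groups. Lama1 held 49.4% and 46.1% of the alpha chain FPKM in the Ezh2 f/f libraries against 17.6% and 17.3% in the Ezh2 cKO libraries. Lama4 went from 24.1% and 26.3% to 42.2% and 40.4%, and became the leading alpha chain. Lama5 went from 16.8% and 17.0% to 21.7% and 21.4%, and Lama2 from 7.37% and 6.47% to 12.03% and 14.4%. The levels of these 3 chains were themselves not called. The alpha sum was 7.92 and 8.30 FPKM in Ezh2 f/f against 5.55 and 5.24 in Ezh2 cKO.

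The beta chains and the main gamma chain changed little. Lamb2, the beta chain of mature vessels and synapses, had 57.4 and 51.1 CPM in Ezh2 f/f against 47.4 and 38.9 in Ezh2 cKO (1.26-fold lower, adjusted p = 0.0171). Lamc1, the gamma chain of most laminins, had 61.8 and 58.4 CPM and then 48.3 and 50.6 (1.22-fold lower, adjusted p = 0.0144). In both genes the groups did not overlap, but each call was lost when single libraries were left out. For Lamb2 these were Ezh2 f/f replicate 1 (adjusted p = 0.0735) and Ezh2 cKO replicate 2 (adjusted p = 0.257). For Lamc1 they were Ezh2 f/f replicate 1 (adjusted p = 0.0708), Ezh2 cKO replicate 1 (adjusted p = 0.117) and Ezh2 cKO replicate 2 (adjusted p = 0.0677). Lamb1, the beta chain of early laminins, had 46.8 and 37.6 CPM in Ezh2 f/f against 42.8 and 41.9 in Ezh2 cKO, with a log2 fold change of 0.00 ± 0.11. Its direction turned under some alternatives. Lamc3 was not called either (0.17 ± 0.16), nor was Lamb3, which joins Lama3 in epithelia (0.61 ± 0.27, adjusted p = 0.0574). Without Ezh2 f/f replicate 2 Lamb3 was called (0.91, adjusted p = 0.00727). Lamb3 overlaps Hsd11b1 on the other strand, a gene with 12 to 14 counts in Ezh2 f/f against 191 to 195 in Ezh2 cKO, so that its counts are uncertain. Lamb2 made up 65.6% ± 0.711 of the beta FPKM in Ezh2 f/f against 58.8% ± 2.47 in Ezh2 cKO (SD, n = 2).

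**Figure D4:**
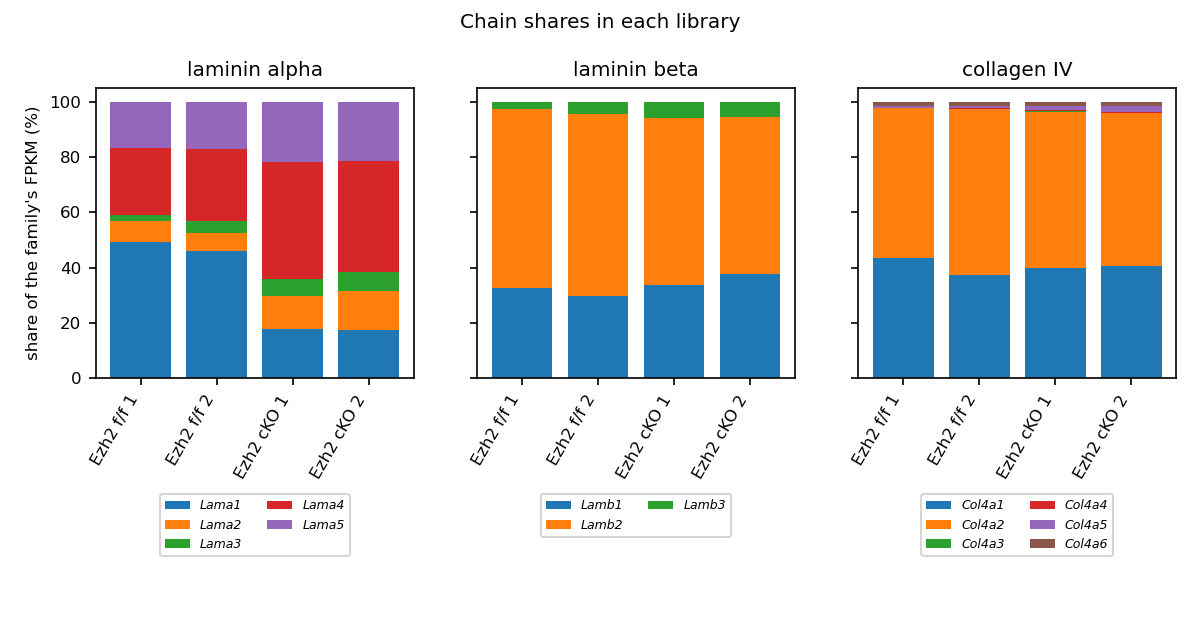
Share of each chain (y axis, percent) in the summed FPKM of the laminin alpha, laminin beta and collagen IV families, 1 bar per library. The Lama1 share was 49.4% and 46.1% in Ezh2 f/f against 17.6% and 17.3% in Ezh2 cKO, whereas the Col4a1 and Col4a2 shares of collagen IV stayed within the spread between libraries.

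Most FACIT collagens rose. Of 9 genes 7 were higher, 0 were lower and 2 were not called, with a median log2 fold change of 0.86. By the same edgeR fit 34.7% of all genes tested were higher. Collagen IX, the fibril surface collagen of cartilage and vitreous, is encoded by 3 of them. Col9a1 had 11 and 14 counts in Ezh2 f/f against 70 and 58 in Ezh2 cKO (4.76-fold higher, adjusted p = 4e-05). Col9a3 had 630 and 603 counts and then 1122 and 1146 (1.73-fold higher, adjusted p = 4.36e-06). In both genes the groups were well apart. Col9a2 had 320 and 566 counts in Ezh2 f/f against 560 and 622 in Ezh2 cKO and was not called (log2 fold change 0.31 ± 0.21). The Ezh2 f/f libraries differed from each other more than the groups did, and leaving out replicate 2 of Ezh2 f/f gave 0.84 (adjusted p = 9.61e-08), whereas leaving out replicate 1 gave -0.09. Col9a3 overlaps 234 bases of Tcfl5 on the other strand, a gene of 36 to 92 counts.

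Collagens XII and XIV bind collagen I fibrils in tendon and skin. Col12a1 had 5.97 and 6.05 CPM in Ezh2 f/f against 17.1 and 14.8 in Ezh2 cKO, a 2.65-fold higher level (adjusted p = 4.96e-06). Col14a1 had 1.46 and 1.59 CPM and then 4.65 and 3.98, a 2.82-fold higher level (adjusted p = 0.000281). Both were thus higher in each Ezh2 cKO library. Col16a1, a FACIT of skin and cartilage, had 15.6 and 19.4 CPM and then 34.4 and 29.2 (1.82-fold higher, adjusted p = 8.56e-05). Col19a1, which interneurons express in the brain, had 7 to 19 counts in Ezh2 f/f against 25 to 44 in Ezh2 cKO (2.49-fold higher, adjusted p = 0.0195). It passed the filter through the Ezh2 cKO libraries only, and its log2 fold change of 1.31 went to 2.13 without Ezh2 f/f replicate 1. It lies 9205 bases from Col9a1, which rose as well. Its call was lost without Ezh2 f/f replicate 2 (adjusted p = 0.114) or Ezh2 cKO replicate 1 (adjusted p = 0.274), and that of Col22a1, a collagen of tissue junctions (1.56-fold higher, adjusted p = 0.0155), without Ezh2 cKO replicate 1 (adjusted p = 0.237). Col20a1, a FACIT related to collagen XIV, was not called (log2 fold change 0.38 ± 0.22).

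In collagen VI, 4 of 6 genes were higher (66.7%, against 34.7% of all genes tested), 0 were lower (against 33.6%) and 2 were not called. Col6a1 and Col6a2 encode the chains that every collagen VI molecule holds, together with a further chain. Col6a1 had 57.0 and 52.2 CPM in Ezh2 f/f against 72.9 and 75.6 in Ezh2 cKO (1.36-fold higher, adjusted p = 0.00083). Col6a2 had 38.3 and 38.3 CPM and then 49.6 and 44.7 (1.23-fold higher, adjusted p = 0.0168). Both genes were higher in each Ezh2 cKO library, but the call of Col6a2 was lost without Ezh2 cKO replicate 1 (adjusted p = 0.168). Their usual partner Col6a3 was not called, with 12.3 and 13.7 CPM in Ezh2 f/f against 13.6 and 9.93 in Ezh2 cKO (log2 fold change -0.14 ± 0.18). The alternative partners Col6a4, Col6a5 and Col6a6 lie in a row on chromosome 9. Col6a4 rose 2.39-fold (adjusted p = 0.00166) and Col6a5 rose 2.46-fold (adjusted p = 0.00193), from 22 to 50 counts in Ezh2 f/f to 51 to 114 in Ezh2 cKO. Without Ezh2 cKO replicate 2 the call of Col6a5 was lost (adjusted p = 0.0543). Col6a6 had 1 and 10 counts in Ezh2 f/f against 18 and 13 in Ezh2 cKO (log2 fold change 1.37 ± 0.67, adjusted p = 0.0816). It was called without Ezh2 f/f replicate 2, where 1 count alone stood for the group. Of the 11 mural markers tested 5 were higher and 1 was lower, and their part in the rise of collagen VI was not tested.

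The multiplexins are collagens of the basement membrane zone whose ends are cut into endostatin-like fragments. Col18a1, a heparan sulphate proteoglycan of vessel and pial basement membranes, had 43.6 and 46.7 CPM in Ezh2 f/f against 31.1 and 26.3 in Ezh2 cKO. It was 1.57-fold lower (log2 fold change -0.65 ± 0.11, adjusted p = 0.000146) and the only 1 of the 26 other chains to be called lower. The gene overlaps 8825 bases of Slc19a1 on the other strand, which had 598 to 661 counts in Ezh2 f/f against 519 to 542 in Ezh2 cKO. Col15a1, which links basement membranes to the matrix beneath, did not differ beyond its error (-0.01 ± 0.15), with 13.2 to 14.3 CPM in all 4 libraries.

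Of the transmembrane collagens, Col23a1 had 19.5 and 19.9 CPM in Ezh2 f/f against 35.9 and 32.7 in Ezh2 cKO (1.74-fold higher, adjusted p = 3.46e-05). The other members of this class were not called. The log2 fold change was 0.27 ± 0.23 for Col25a1, a neuronal collagen found in amyloid plaques, 0.28 ± 0.31 for Col13a1, which acts at the neuromuscular junction, and 0.95 ± 0.55 for Col17a1, a hemidesmosome collagen with 4 to 13 counts. Col25a1 was called without Ezh2 f/f replicate 2 (0.52, adjusted p = 0.0463), and Col13a1 fell to 0.00 without Ezh2 f/f replicate 1.

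Of the remaining collagens, Col8a1, a short chain collagen of endothelial and smooth muscle matrix, had 8 and 23 counts in Ezh2 f/f against 57 and 52 in Ezh2 cKO (3.26-fold higher, adjusted p = 0.00195). Its log2 fold change of 1.70 went to 1.09 without Ezh2 f/f replicate 1 and to 2.70 without Ezh2 f/f replicate 2. Col28a1, a collagen of glial cells around peripheral nerves, had 8 and 8 counts and then 32 and 23 (3.19-fold higher, adjusted p = 0.00359), and lost its call without Ezh2 cKO replicate 1 (adjusted p = 0.0757). Both passed the filter through the Ezh2 cKO libraries only. Col8a2, the partner of Col8a1, was not called (0.07 ± 0.25), nor was Col7a1, the anchoring fibril collagen of skin (-0.25 ± 0.17). Col26a1 had 885 and 1248 counts in Ezh2 f/f against 977 and 924 in Ezh2 cKO and was not called (-0.27 ± 0.15). As with Col9a2, the Ezh2 f/f libraries were far apart. The value was -0.55 (adjusted p = 6e-06) without replicate 1 of Ezh2 f/f, whereas it was 0.05 when replicate 2 was left out.

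The calls varied with the level of the genes. Of 12 tested members with a mean below 0.5 FPKM over the 4 libraries, 8 were higher and 0 lower, with a median log2 fold change of 1.34, against 37.0% higher, 16.7% lower and a median of 0.49 over the 2195 genes tested in that range. From 0.5 to 2 FPKM, 5 of 19 members were higher and 3 lower, against 36.2% and 22.7% of all genes. From 2 to 5 FPKM, 3 of 9 were higher and 1 lower, against 35.4% and 32.2%. At 5 FPKM or more, 3 of 13 members were higher and 7 lower, against 33.0% and 44.9%, with a median of -0.28 against -0.14. The median thus fell with level among the members and among all genes, from a higher start among the members. Whether the slopes differ was not tested. Of the members below 0.5 FPKM, Col17a1, Col19a1, Col6a6, Col8a1 and Col28a1 passed the filter through Ezh2 cKO only and could not have been called lower. Among these, Col19a1, Col8a1 and Col28a1 were called higher. The higher start of the members is thus in part set by the filter. The share of such genes was 7.43% over all genes tested and was not counted within the range.

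**Figure D5:**
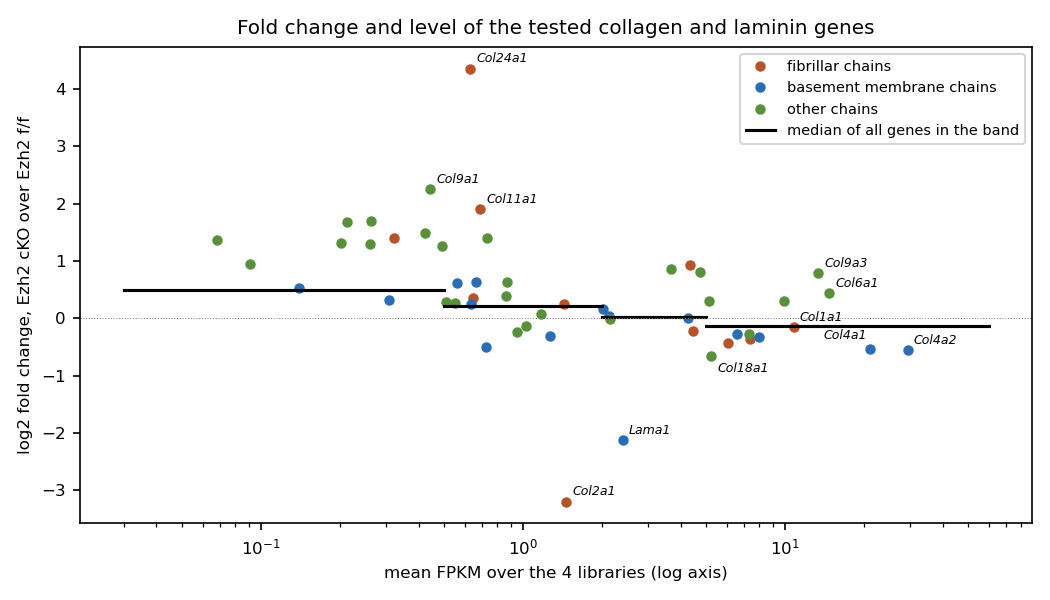
Log2 fold change (y axis) against the mean FPKM over the 4 libraries (log x axis) of the tested members named in the text, coloured by class. Black lines are the median log2 fold change of all genes tested in the same FPKM range, from 0.49 below 0.5 FPKM to -0.14 at 5 FPKM or more. The 12 tested members below 0.5 FPKM lie above 0, and some of them passed the filter through Ezh2 cKO only.

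Genes that fold, modify and carry procollagen moved in both directions. Of 19 tested, 5 were higher (26.3%) and 6 lower (31.6%), with a median log2 fold change of -0.10. Over all genes tested these shares were 34.7% and 33.6%, the background for this list and those that follow. P4ha1, an alpha subunit of prolyl 4-hydroxylase, rose 2.02-fold (adjusted p = 4.32e-06), while its partner P4hb fell from 305.9 ± 2.80 to 164.9 ± 2.04 CPM (SD, n = 2; adjusted p = 4.61e-07). Colgalt1, which adds galactose to hydroxylysine, and Plod1, a lysyl hydroxylase, were 1.59-fold and 1.45-fold higher. P3h3, of the prolyl 3-hydroxylase family, was 2.57-fold lower (adjusted p = 7.41e-08), and the lysyl hydroxylase Plod3 was 2.03-fold lower. Serpinh1, the collagen chaperone, was not called (1.09-fold).

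Of 14 genes that trim or cross-link collagen 2 were higher (14.3%), 5 lower (35.7%) and 7 not called, with a median of -0.12. The procollagen N-proteinase Adamts2 was 1.95-fold lower, and Pxdn, the peroxidase that cross-links collagen IV, was 1.45-fold lower. The tolloid proteases moved apart. Tll1 had 7 and 6 counts in Ezh2 f/f against 23 and 37 in Ezh2 cKO (4.28-fold higher, adjusted p = 0.00116), and Tll2 had 28 and 27 and then 5 and 8 (4.44-fold lower, adjusted p = 0.000727). The lysyl oxidase Loxl3 was 1.43-fold higher.

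The partners of collagen IV and laminin in the basement membrane all passed the test, 5 of 12 higher (41.7%) and 7 lower (58.3%), with a median of -0.29. The fibulins Fbln1 and Fbln2 were 2.44-fold and 2.36-fold lower (adjusted p = 1.46e-07 and 4.84e-06), and Smoc1, a calcium-binding matrix protein, was 1.60-fold lower. Nid1 and Nid2, the nidogens that join laminin to collagen IV, were 1.24-fold and 2.08-fold lower, and Agrn, a heparan sulphate proteoglycan that binds laminin and dystroglycan, 1.34-fold lower (these 3 genes were chosen after their values were seen). Sparc, a collagen-binding protein of astrocytes and vessels, was 1.43-fold higher, while Ntn4, a netrin that binds laminin, and Egflam, a dystroglycan ligand, were 2.12-fold and 2.02-fold higher.

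Of 15 receptors of collagens and laminins, 4 were higher and 4 lower (26.7% each), with a median of 0.11. Cd44, a hyaluronan receptor that also binds collagen, was 3.20-fold higher (adjusted p = 1.01e-05). The laminin receptor integrin alpha 7 (Itga7) was 2.17-fold and the collagen receptor integrin alpha 1 (Itga1) 1.73-fold higher. Another collagen receptor, Itga11, was 2.77-fold lower (adjusted p = 4.46e-05). Adgrg1, an adhesion receptor for collagen III in the cortex, was 1.34-fold lower and Dag1, dystroglycan, 1.29-fold lower. Among 12 matrix proteases and inhibitors 3 were higher (25.0%) and 5 lower (41.7%), with a median of -0.105. Timp4, an inhibitor of metalloproteinases, was 4.49-fold higher (adjusted p = 3.61e-08), Mmp17 2.09-fold and Mmp16 1.32-fold. Mmp9, a gelatinase that degrades collagen IV, was 4.48-fold lower (adjusted p = 1.01e-06), Mmp11 3.79-fold lower and the inhibitor Timp3 1.39-fold lower.

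Neighbouring chains were mostly called alike where both were called. Col4a1 with Col4a2, Col6a1 with Col6a2, Col6a4 with Col6a5 and Col9a1 with Col19a1 shared their direction, and Col4a5 with Col4a6 did not. Col3a1 and Col5a2, 24614 bases apart, had log2 fold changes of -0.42 and 0.25, of which only the former was called. Such pairs share a locus and are not independent observations.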

How the data were processed

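RNA of cortical cells isolated as astrocytes with beads, from 2 Ezh2 f/f and 2 Ezh2 cKO libraries, was analysed. The authors deposited read counts per gene without normalisation and FPKM values, which scale the counts by gene length and by the table total of each library (0 genes departed from this by more than 0.01 bases of length). Their tables also hold their own comparison, which was not used, and 0 columns of samples were left out. The submitters' processing notes name TopHat2 2.0.12, Bowtie2 2.2.3, HTSeq 0.6.0 and mm9; use of strand is not given in the sources used here. Gene positions are printed as deposited. Of 55 members only 3 have the same position in GENCODE M21, so that promoter coordinates, which are on GRCm38.p6, were kept apart from them.

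Genes were filtered with filterByExpr and compared by the edgeR 4.0.16 quasi-likelihood test (R 4.3.3, TMM factors 0.967 to 1.040, common biological coefficient of variation 0.0953), with the group as the only term. The Benjamini-Hochberg adjustment ran over the 16793 genes that passed, and a gene was called at an adjusted p under 0.05. CPM values use library sizes after TMM. Where libraries are said not to overlap or to be apart, only the genes named are described. The share over all genes was not counted. Fold changes give Ezh2 cKO relative to Ezh2 f/f, and their errors are standard errors. A count of 3, or 0.171 to 0.184 CPM, was taken as the limit of detection, which covers counting error only. The alternatives were DESeq2 1.42.0, other normalisations and filters, limma 3.58.1 on log2(FPKM + 1) or log2(FPKM + 0.1), a gene length correction, the replicate number as a block and each library left out in turn. The main fit, DESeq2, its size factors, limma on log2(FPKM + 1), the length correction and the block were tried on simulated data. The other filters, log2(FPKM + 0.1) and the fits without 1 library were not. Motifs were searched on both strands.

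The members, their classes and the lists of pathway genes and markers were chosen with earlier results of these data known. The tested members are named, except for 1 that enters the counts, medians and sums but is not reported here. From a pathway list, the up to 3 genes with the smallest p in either direction are named. Genes outside these rules were picked with their values in view. Of the 55 members 16 overlap another gene of the table, 13 of them on the other strand, and are uncertain to that extent.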

Additional observations from a re-analysis of the deposited data

How the results depend on the processing

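Of the 30 called members, 16 were called in the same direction under each alternative that tested them, and 0 changed direction. The calls lost were mostly of small changes, but Col19a1, Col6a4, Col6a5 and Col28a1, with changes above 2-fold, lost theirs too. Chains with many counts were among them, such as Col4a1 with 2245 to 3550. Each group had 2 libraries, many chains had counts below about 100, and markers of other cells moved between the groups. The part of each in the lost calls was not tested. With limma on log2(FPKM + 1) or log2(FPKM + 0.1), 9 members were higher and 6 lower, among them 6 higher other chains and 0 higher and 3 lower basement membrane chains (chains below 1 FPKM were left out there, and 3 lower calls of tested chains were lost). With limma on log2(FPKM + 1) without a filter, 4518 of all genes were lower and 5411 higher. There, 4 members were lower (2 of basement membranes and 1 fibrillar), and 0 basement membrane chains were higher. The latter count was 0 with DESeq2, without a filter on low counts and with the gene length trend removed, and 2 with a mean of at least 50 counts, where 9 other chains were higher. With the gene length trend removed, 5 fibrillar and 2 other chains were lower. Over all genes that setting gave 6748 lower and 4854 higher, against 5650 and 5831 in the main fit. The cause was not tested. Where a call also needed a 2-fold change, 3185 of all genes stayed higher and 2352 lower, and of the members 11 and 2 (basement membrane chains 0 and 1, fibrillar chains 3 and 1, other chains 8 and 0). Over the 4 fits that left out 1 library, 15 to 24 members were higher and 7 to 10 lower. Basement membrane chains were higher in 0 to 4 cases and lower in 4 to 5, fibrillar chains lower in 2 to 4, and other chains higher in 10 to 16 and lower in 1 to 2. The lowest count of lower members, 7, was reached without Ezh2 cKO replicate 2, and the 4 higher basement membrane chains without Ezh2 f/f replicate 2. With the replicate block, 22 members were higher and 10 lower, with 2 basement membrane chains higher. The numbers are not known to pair the libraries. Over genes with a mean of at least 50 counts, the deviations of the libraries numbered 1 from their group means correlated at 0.161. With 2 libraries per group the deviations of the libraries numbered 2 mirror these and add nothing. With DESeq2 size factors the median of all genes moved by -0.016, and the 30 calls of the members stayed. With DESeq2 the calls of Col4a5, Col4a6, Col19a1, Col22a1 and Col6a2 were lost (adjusted p from 0.055 to 0.142), and with limma on log2(FPKM + 1) those of Col1a2, Lamb2 and Lamc1 (0.0614 to 0.135). Without its filter 12 of the members' calls were lost, 5 higher and 7 lower (0.0603 to 0.253), which included Col3a1, Col4a1, Col4a5, Col4a6, Col6a4, Col6a5, Col19a1 and Col22a1.

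Only members that were not called turned in direction. These were Lamb1 (-0.0114 with DESeq2, -0.0117 with DESeq2 size factors, -0.15 with the gene length trend removed, and -0.16 to 0.17 on leaving out 1 library), Lama4 (-0.12 with the gene length trend removed), Lamc3 (-0.0058) and Col8a2 (-0.12) under the same correction, and Col15a1 (0.0279 with a mean of at least 50 counts, 0.0527 with limma on log2(FPKM + 1) with or without a filter, and 0.0738 with log2(FPKM + 0.1)). On leaving out 1 library the log2 fold change ranged from -0.061 to 0.13 for Lama4, from -0.0615 to 0.82 for Lama3, from -0.33 to 0.039 for Col1a1, from -0.0911 to 0.84 for Col9a2, from -0.39 to 0.0724 for Col6a3, from -0.0609 to 0.0319 for Col15a1, from -0.55 to 0.054 for Col26a1, from -0.23 to 0.42 for Col8a2 and from -0.004 to 0.60 for Col13a1. The share of Lama1 among the alpha chains from CPM in place of FPKM was 41.7% (Ezh2 f/f) against 14.0% (Ezh2 cKO).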
